A study of Mus musculus with 31 samples.

Results

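Natural killer (NK) cells of mice that lack the type II TGF-beta receptor were compared with wild-type NK cells before any TGFB1 was added. All autosomal genes that passed a filter on low counts were taken, which left 9751 of the 27179 genes in the deposited count table, measured in 3 TGFBRII KO and 4 WT libraries of the 31 in the series. The other libraries were unstimulated CIS KO cells and cells of all 3 genotypes kept for 4 h or 24 h with TGFB1, and they entered the same model to estimate the spread. CIS, encoded by Cish, is a suppressor of interleukin-15 signalling in NK cells. The labels describe sorted NK cells from unnamed organs and call the libraries of a group biological replicates, and the allele, any Cre driver, strain, sex and age are not given in them. The comparison asks what the receptor maintains in NK cells before TGFB1 is supplied.

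TGF-beta binds its type II receptor, which recruits and activates a type I receptor, and the pair phosphorylates SMAD2 and SMAD3. These enter the nucleus with SMAD4 and switch genes on or off, among them the co-repressors Ski and Skil and the inhibitory Smad7, which close feedback loops on the pathway. In NK cells TGF-beta is known to restrain cytotoxicity and metabolism and to favour features of tissue-resident cells and type 1 innate lymphoid cells (ILC1), such as the integrins CD49a and CD103.

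Without added TGFB1 few genes passed the test between the genotypes. In edgeR's quasi-likelihood test with Benjamini-Hochberg adjustment over all tested genes, 12 autosomal genes passed an adjusted p of 0.05. Of these 4 were higher in TGFBRII KO cells (0.041% of the genes tested) and 8 were lower (0.082%). The number of calls was sensitive to single libraries, at 5 without TGFBRII KO replicate 1 and 76 without WT replicate 1, and it was 163 with no filter on low counts, 59 with depth as a covariate and 7 with DESeq2. The balance turned with it, to 48 higher and 28 lower without WT replicate 1 and to 110 higher and 53 lower with no filter. The higher genes were Mmp9, Sik1, Rasl11a and Ppil3, and the lower genes were Ifi208, Itga1, Zfp318, Limd1, Ifitm3, Clnk, Ski and Sec61a2. For comparison, the same test between the same genotypes called 1182 genes after 4 h of TGFB1 (12.1%) and 2120 after 24 h (21.7%). The WT group at 4 h held only 2 libraries, and its replicate 1 had 297561 counts, the lowest total of the 31 libraries. On simulated counts of the unstimulated comparison, 67 genes were changed 1.5-fold, 67 were changed 2-fold and 66 were changed 4-fold. The test recovered 35.8%, 73.1% and 92.4% of them, so differences under 2-fold can be missed at this depth. That run made 139 calls, more than the real comparison. Fewer calls make the adjusted threshold stricter, so recovery in the real comparison can be lower than these shares.

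The libraries were shallow and not alike in every respect. Total counts ran from 777648 to 816633 in the 3 TGFBRII KO libraries and from 712432 to 1135104 in the 4 WT libraries, the deepest being WT replicate 3. The chi-square per degree of freedom between the counts of WT replicate 3 and the other WT libraries was 1.83 to 2.95, against 0.907 to 1.19 among the other WT libraries. TGFBRII KO replicates 1 and 3 differed by less than counting noise, with a value of 0.841. The same was true of TGFBRII KO replicates 1 and 2, at 0.884, whose Y-linked transcripts were at 192.5 and 388 CPM (counts scaled to a common library total), and of WT replicates 2 and 4, at 0.907, whose Y-linked levels were 91.1 and 1.38 CPM, so a value under 1 did not mark a library deposited more than once, and all were kept as separate samples. TGFBRII KO replicate 3 had a Y-linked level of 187 CPM, close to that of replicate 1. With TGFBRII KO replicates 1 and 3 counted as 1 sample, 7 genes were called, and Rasl11a, Ppil3, Sec61a2, Clnk and Ski were lost. The summed Y-linked transcripts did not overlap between genotypes, at 187 to 388 CPM in TGFBRII KO and 1.38 to 91.1 CPM in WT. Xist was at 22.9 to 77.8 CPM in TGFBRII KO and 91.1 to 144 CPM in WT. With the Y-linked level as a covariate 11 genes were called, and 5 of the 12 genes above kept their call, namely Mmp9, Ifi208, Itga1, Zfp318 and Clnk.

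NK identity was clear in both genotypes. The 13 NK marker genes summed to 5336 to 5508 CPM in TGFBRII KO and 4166 to 5450 CPM in WT. The 12 T cell markers were higher as a sum in every TGFBRII KO library, at 716 to 727 CPM against 576 to 646 CPM, with Cd4 and Cd8a at 0 in all 7 libraries. Myeloid markers summed to 262 to 298 CPM against 222 to 244 CPM, with Adgre1, S100a8, S100a9 and Siglech at 0. The sums for ILC2 and ILC3 markers were 409 to 455 CPM against 264 to 437 CPM with Il5, Il17a and Il22 at 0. Stromal and epithelial markers gave 296 to 314 CPM against 264 to 305 CPM with Alb, Cdh5, Col1a2, Dcn and Krt8 at 0. The part of these differences in the results below was not tested. In bulk libraries, fewer cells of a type and less RNA per cell cannot be told apart.

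The targeted gene was read first. Tgfbr2, the type II receptor, lies on chromosome 9 from 116087695 to 116175363 (RefSeq, GRCm38.p6). Its level was 230.5, 237.4 and 221 CPM in TGFBRII KO and 250.4, 211, 189 and 200.3 CPM in WT, and the groups overlapped. The log2 difference was 0.12 ± 0.13 (SE; adjusted p = 0.866). Counts per gene do not show which exons are read, so they do not check a deletion that leaves the rest of the transcript. The response to TGFB1 bears on the label directly. Over 185 genes that rose with TGFB1 in CIS KO cells at both times (a list defined further on), the mean level in log2(CPM + 1) was 3.63 to 3.71 in unstimulated TGFBRII KO libraries, 3.55 to 3.64 after 4 h and 3.66 to 3.69 after 24 h. In WT libraries it was 3.89 to 4.10 unstimulated, 5.42 and 5.65 in the 2 libraries at 4 h, and 5.70 to 5.79 at 24 h.

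Of the 8 lower genes, Itga1, Ski and Zfp318 also belonged to the 185 genes that TGFB1 raised by at least 1 on the log2 scale at both times in CIS KO cells, and their promoters are shown for that reason. Sec61a2 passed the test in CIS KO at both times too (log2 changes of 1.18 ± 0.24 and 0.90 ± 0.23 SE, edgeR adjusted p = 0.000483 and 0.00441), as did Mmp9 in the other direction (-0.73 ± 0.15 and -2.15 ± 0.16 SE, adjusted p = 0.000495 and 2.32e-12), without meeting that size at both times. Rasl11a belonged to the genes that TGFB1 lowered by the same rule. The sequences are RefSeq GRCm38.p6 windows of 250 bases before to 50 bases after an annotated start, read 5′ to 3′ on the strand of the gene. Capitals mark 2 short sequences bound by SMAD proteins, CAGAC and GGCGC, or their reverse complements GTCTG and GCGCC, and neighbouring matches can share bases. The windows are Itga1 on chr13:115101915-115102214 (minus strand), Ski on chr4:155222486-155222785 (minus strand) and Zfp318 on chr17:46383516-46383815 (plus strand), the last lying inside the annotated gene.
Itga1: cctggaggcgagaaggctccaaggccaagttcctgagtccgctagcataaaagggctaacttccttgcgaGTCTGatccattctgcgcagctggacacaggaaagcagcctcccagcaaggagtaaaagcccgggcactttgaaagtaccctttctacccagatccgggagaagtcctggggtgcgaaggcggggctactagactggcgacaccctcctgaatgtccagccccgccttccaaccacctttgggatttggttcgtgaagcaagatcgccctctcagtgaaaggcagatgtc
Ski: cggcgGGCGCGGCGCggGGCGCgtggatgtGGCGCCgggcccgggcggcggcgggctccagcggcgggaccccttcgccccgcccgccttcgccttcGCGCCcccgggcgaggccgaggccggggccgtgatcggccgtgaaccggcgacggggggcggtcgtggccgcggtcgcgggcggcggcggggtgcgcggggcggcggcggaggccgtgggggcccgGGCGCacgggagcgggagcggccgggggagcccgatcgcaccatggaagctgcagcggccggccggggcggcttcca
Zfp318: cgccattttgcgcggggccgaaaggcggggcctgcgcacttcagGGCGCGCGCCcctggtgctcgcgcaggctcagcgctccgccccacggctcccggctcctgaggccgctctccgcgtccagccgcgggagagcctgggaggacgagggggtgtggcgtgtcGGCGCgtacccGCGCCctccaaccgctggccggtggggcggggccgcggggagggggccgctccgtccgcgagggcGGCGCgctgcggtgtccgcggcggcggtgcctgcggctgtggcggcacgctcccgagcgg
The Itga1 window held 1 match to CAGAC and none to GGCGC, the Ski window 7 matches to GGCGC and none to CAGAC, and the Zfp318 window 5 matches to GGCGC and none to CAGAC. Such matches are common. Of 31396 autosomal RefSeq windows of this length 49.6% held CAGAC and 37.3% held GGCGC on either strand, and over the windows of the tested autosomal genes the shares were 46.6% and 64.5%. Over the 185 TGFB1-raised genes they were 49.2% and 61.1%. A match describes these letters and is no evidence of binding.

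Itga1 encodes CD49a, the alpha chain of a collagen- and laminin-binding integrin that marks tissue-resident NK cells and ILC1. It lies on chromosome 13 from 114958079 to 115101964, and Pelo lies within its bounds. Its level was 105, 111 and 114 CPM in TGFBRII KO and 193, 186, 230.5 and 199 CPM in WT. All 3 TGFBRII KO libraries lay below all 4 WT libraries, with means of 110.1 ± 4.60 CPM (SD, n = 3) and 202.2 ± 19.6 CPM (SD, n = 4). The log2 difference was -0.88 ± 0.14 (SE, edgeR adjusted p = 0.00148).

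Ski, a SMAD co-repressor that TGF-beta induces as a brake on its own signal, lies on chromosome 4 from 155154075 to 155222535. Its level was 89.9, 90.4 and 103 CPM in TGFBRII KO and 145, 132, 163 and 131 CPM in WT. The groups did not overlap, and the log2 difference was -0.60 ± 0.13 (SE, edgeR adjusted p = 0.0324). This call was the least stable of the 3, being made in 9 of 16 alternative settings, whereas Itga1 and Zfp318 were called in 16 of 16. Zfp318 is a zinc-finger protein known in B cells for allowing IgD to be made, and it overlaps the predicted gene Gm9706 on chromosome 17 (46383515 to 46420920). It was at 48.1, 67.5 and 60.8 CPM in TGFBRII KO and 96.6, 126, 146 and 134 CPM in WT. Every TGFBRII KO library lay below every WT library, and the log2 difference was -1.10 ± 0.18 (SE, edgeR adjusted p = 0.00148).

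Ifi208 had the largest fall among the 12. It belongs to the PYHIN family of interferon-inducible genes, a cluster of similar genes on chromosome 1 (Ifi208 lies from 173673628 to 173698393), so reads shared with related genes make its counts uncertain. Its level was 17.7, 6.03 and 14.6 CPM in TGFBRII KO and 48.3, 49.9, 78.8 and 55.2 CPM in WT. The groups stood well apart, with a log2 difference of -2.21 ± 0.26 (SE, edgeR adjusted p = 4.84e-06). Ifitm3, a membrane protein that blocks virus entry and has close paralogues, lies on chromosome 7 from 141009590 to 141010744 and also fell. It was at 57.0, 65.1 and 36.4 CPM against 96.6, 101, 112 and 82.9 CPM in WT. The groups did not overlap, and the log2 difference was -0.91 ± 0.18 (SE, edgeR adjusted p = 0.0139). Ifi208 and Ifitm3 were not on the type I interferon response list, whose 17 measured genes held none that passed the test. Their log2 differences ran from -0.80 to 0.62, with a median of 0.03.

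Limd1, Clnk and Sec61a2 complete the lower genes. Limd1, a LIM-domain adaptor of Hippo signalling and microRNA silencing, lies on chromosome 9 from 123478661 to 123521552, on the chromosome of Tgfbr2 and within 20 Mb of it. Its level was 138, 154 and 135 CPM in TGFBRII KO and 216, 191, 202 and 226 CPM in WT. There was no overlap, and the log2 difference was -0.55 ± 0.09 (SE, edgeR adjusted p = 0.00226), called in 15 of 16 alternative settings. Limd1 was the only called gene of the 189 tested within 20 Mb of Tgfbr2. Of these 189 genes 12 were lower and 8 higher at an unadjusted p under 0.05 (6.35% and 4.23%), against 4.73% and 4.31% of the autosomal genes elsewhere.

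Clnk encodes an adaptor of the SLP-76 family that acts in NK and mast cell receptor signalling, and lies on chromosome 5 from 38705588 to 38876858. It was at 45.6, 54.2 and 41.3 CPM in TGFBRII KO against 86.4, 77.4, 76.3 and 64.9 CPM in WT. Its groups did not overlap, and the log2 difference was -0.70 ± 0.15 (SE, edgeR adjusted p = 0.0284). Sec61a2, which encodes an alpha subunit of the channel that carries new proteins into the endoplasmic reticulum, lies on chromosome 2 from 5870977 to 5895432. It was at 12.7, 10.8 and 13.4 CPM against 22.9, 28.7, 36.0 and 26.2 CPM in WT, giving a log2 difference of -1.23 ± 0.27 (SE, edgeR adjusted p = 0.0497). Its call was kept in 4 of 16 alternative settings and that of Clnk in 8 of 16.

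Among the 4 higher genes, Mmp9 was called in 16 of 16 alternative settings. Mmp9 encodes gelatinase B, a secreted protease that cuts matrix proteins and can release latent TGF-beta, and lies on chromosome 2 from 164940326 to 164955850. Its level was 366, 409.8 and 341 CPM in TGFBRII KO and 219, 207, 194 and 267 CPM in WT. Every TGFBRII KO library lay above every WT library, with means of 372 ± 34.6 CPM (SD, n = 3) and 222 ± 31.7 CPM (SD, n = 4). The log2 difference was 0.76 ± 0.13 (SE, edgeR adjusted p = 0.00148).

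Sik1 is a salt-inducible kinase that restrains transcription driven by cyclic AMP, and lies on chromosome 17 from 31844248 to 31855804, overlapping the predicted gene Gm41564. Its level was 81.0, 90.4 and 75.3 CPM in TGFBRII KO and 41.9, 23.7, 38.6 and 34.5 CPM in WT. The groups were apart, with a log2 difference of 1.23 ± 0.23 (SE, edgeR adjusted p = 0.00961). Rasl11a encodes a small GTPase of the Ras-like family and lies on chromosome 5 from 146845071 to 146847726. It was at 16.5, 27.7 and 15.8 CPM against 3.81, 8.74, 2.52 and 4.14 CPM in WT, giving a log2 difference of 2.08 ± 0.45 (SE, edgeR adjusted p = 0.0372). Its counts were low and its call was kept in 8 of 16 alternative settings. Ppil3, a cyclophilin-like isomerase of the spliceosome, lies on chromosome 1 from 58430993 to 58445591 and overlaps Nif3l1, so its counts are uncertain. It was at 59.5, 72.3 and 69.3 CPM against 29.2, 38.7, 45.3 and 38.7 CPM in WT, giving a log2 difference of 0.80 ± 0.17 (SE, edgeR adjusted p = 0.0404), and its call was kept in 5 of 16 alternative settings.

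**Figure D1:**
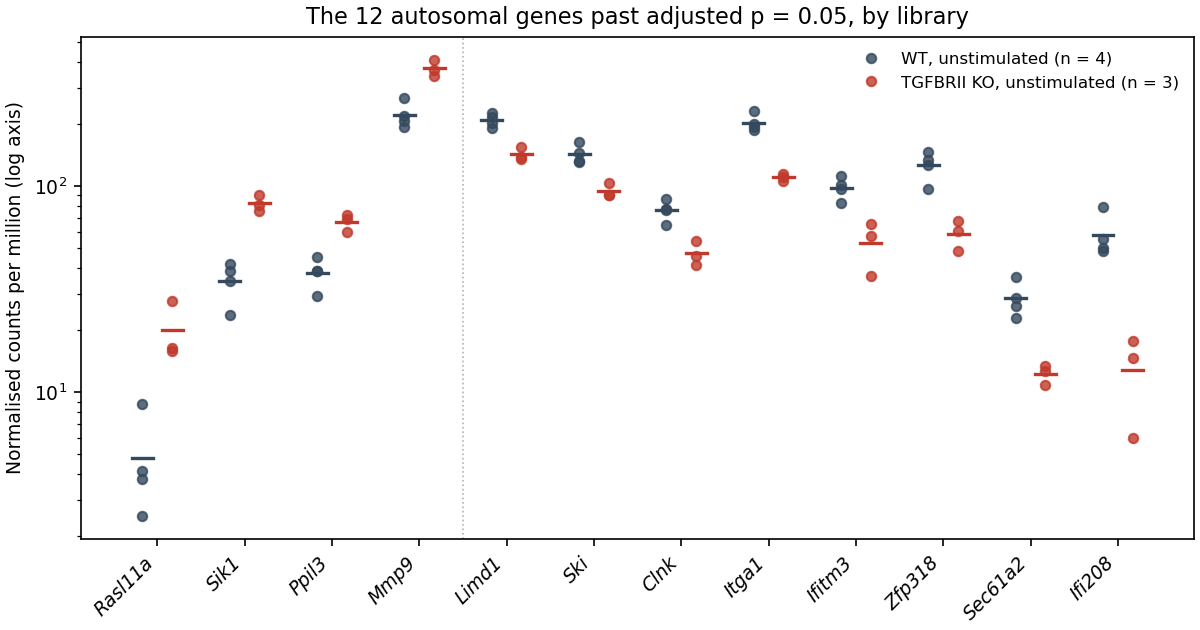
Level of the 12 called autosomal genes in each library, in CPM on a log axis, with WT in dark blue, TGFBRII KO in red, points for libraries and bars for group means. In all 12 genes the 3 TGFBRII KO libraries lie outside the range of the 4 WT libraries; genes left of the dotted line were higher in TGFBRII KO.

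Genes just outside the threshold were read by the same rule, which took the lowest p-values among genes whose groups did not overlap. Groups that do not overlap were common, since 464 autosomal genes had all TGFBRII KO libraries above all WT libraries (4.76%) and 524 had them below (5.37%). At an unadjusted p under 0.05 there were 420 higher (4.31%) and 464 lower (4.76%) genes, and the median log2 difference over all autosomal genes was -0.01. On the higher side the next genes were Dll1 (a Notch ligand), Marcks (a membrane-bound substrate of protein kinase C), C5ar2 (a receptor for complement C5a), Khdc1b, Syna (an envelope protein of retroviral origin) and Khdc1a, with adjusted p of 0.0526 to 0.0646. Dll1 was at 62.1, 41.0 and 57.1 CPM in TGFBRII KO and 36.8, 22.5, 23.5 and 20.7 CPM in WT, giving a log2 difference of 1.04 ± 0.23 (SE). Khdc1a and Khdc1b are close relatives that can share reads. On the lower side the next genes were Crisp1, a secreted cysteine-rich protein, and Pi4k2a, a kinase of phosphatidylinositol, both at an adjusted p of 0.0646.

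The 12 genes were then read after TGFB1 was added, in libraries that the unstimulated comparison does not use. These may still come from the same animals or pools, since in TGFBRII KO the Y-linked level followed the replicate number. It was 388, 451 and 376 CPM in replicate 2 without TGFB1, at 4 h and at 24 h, and 187 to 248 CPM in replicates 1 and 3. In WT it was 91.1 and 124 CPM in replicate 2 without TGFB1 and at 24 h, and 1.38, 20.04 and 1.48 CPM in replicate 4 without TGFB1, at 4 h and at 24 h. All 12 kept their direction at both times. At 4 h 8 of the 12 passed the test, against 12.1% of all autosomal genes, and at 24 h 11 of the 12 passed, against 21.7%. Ppil3 did not pass at either time, at a log2 difference of 0.66 ± 0.23 at 4 h and 0.24 ± 0.17 at 24 h (SE, edgeR adjusted p = 0.0601 and 0.357). None was called in the opposite direction.

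For 8 of the 12 genes, no change in the genotype difference with TGFB1 passed the test, and for 4 it did. The differences in Limd1 were -0.55 unstimulated, -0.56 at 4 h and -0.53 at 24 h on the log2 scale. Those in Sik1 were 1.23, 1.28 and 1.21, and those in Ifitm3 were -0.91, -0.91 and -1.04. In these 3 genes the estimates without TGFB1 were close to the later ones. The changes in Sik1 were wide, at 0.05 ± 0.43 at 4 h and -0.02 ± 0.38 at 24 h (SE). Sik1, Ifitm3 and Limd1 all lost their unstimulated call with the Y-linked level as a covariate. The part of that level in these values was not tested. Others of the 8 varied more, with imprecise changes. Ifi208 was at -2.21, -3.385 and -1.21, with changes of -1.18 ± 0.48 and 0.99 ± 0.40 (SE, edgeR interaction adjusted p = 0.140 and 0.117). Rasl11a was at 2.08, 2.80 and 3.94, with changes of 0.72 ± 1.22 and 1.86 ± 0.86 (SE, edgeR interaction adjusted p = 0.777 and 0.183). Ski, Itga1 and Zfp318 moved further apart. Ski was at 143 ± 14.6 CPM in unstimulated WT (SD, n = 4), 578 ± 12.4 at 4 h (SD, n = 2) and 506 ± 47.2 at 24 h (SD, n = 4), and at 94.5 ± 7.58, 77.1 ± 14.8 and 86.8 ± 4.62 CPM in TGFBRII KO (SD, n = 3 each). Its log2 difference, TGFBRII KO minus WT, changed by -2.31 ± 0.19 at 4 h and by -1.94 ± 0.18 at 24 h (SE, edgeR interaction adjusted p = 9.68e-10 and 1.13e-09).

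Itga1 reached 293 ± 26.6 CPM at 4 h (SD, n = 2) and 356 ± 27.7 CPM at 24 h (SD, n = 4) in WT, and stood at 63.0 ± 19.1 and 110.9 ± 9.44 CPM in TGFBRII KO (SD, n = 3 each). Its genotype difference changed by -1.36 ± 0.23 at 4 h and -0.80 ± 0.20 at 24 h on the log2 scale (SE, edgeR interaction adjusted p = 0.000211 and 0.00614). Zfp318 changed by -1.29 ± 0.30 and -1.04 ± 0.25 (SE, edgeR interaction adjusted p = 0.00510 and 0.00361). Mmp9 moved in the other direction at 24 h, when it was at 42.7 ± 5.40 CPM in WT (SD, n = 4) and 334 ± 31.4 CPM in TGFBRII KO (SD, n = 3), a change of 2.21 ± 0.21 in the log2 difference (SE, edgeR interaction adjusted p = 1.78e-09). The unstimulated values enter these differences and also chose the genes. With the replicate number within each genotype as a block, a fit chosen after seeing the data, the same 7 changes in these 4 genes passed, at adjusted p of 6.76e-08 to 0.0134.

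**Figure D2:**
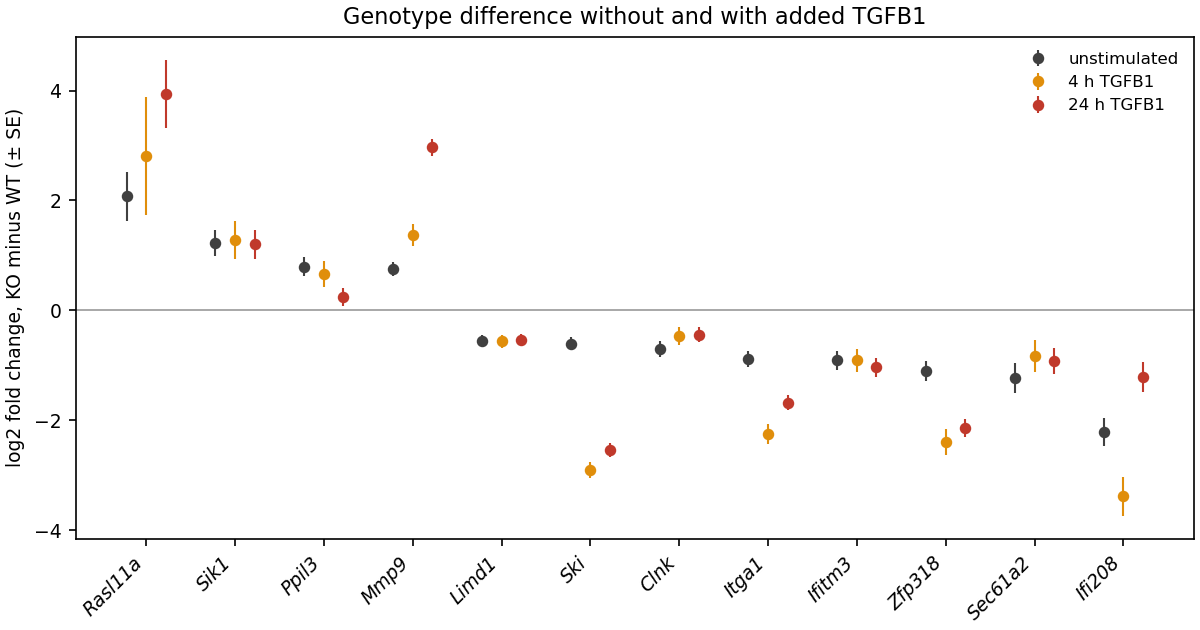
Log2 difference between TGFBRII KO and WT for the 12 genes called without TGFB1. Points are unstimulated (dark grey), after 4 h (orange) and after 24 h (red) of TGFB1, with bars of 1 SE derived from the edgeR test. All points keep their side of 0. Ski, Itga1, Zfp318 and Mmp9 move away from 0, while Limd1, Sik1 and Ifitm3 stay near their unstimulated values. Ifi208 and Rasl11a vary more, without a change that passed the test.

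Unstimulated CIS KO cells, which respond to TGFB1, give a second reference of a different genotype. Their Y-linked level was 419 to 473 CPM and their Xist level 0, both outside the ranges of TGFBRII KO and WT. The part of this in the values below was not tested, and Ski and Limd1 lost their call against WT with the Y-linked covariate. The comparison of TGFBRII KO with CIS KO uses the same TGFBRII KO libraries and called 428 autosomal genes (4.39%), 241 higher and 187 lower. With library sizes alone as the scaling the split was 317 higher and 137 lower. Of the 12 genes called against WT, 11 kept their direction against CIS KO and 5 passed the test. Mmp9 was at 222 ± 24.8 CPM in CIS KO (SD, n = 4), against 372 in TGFBRII KO and 222 in WT. Ifi208 was at 38.6 ± 7.61 CPM, and Ifitm3 at 138 ± 21.9 CPM in CIS KO (SD, n = 4 each), and Itga1 at 152 to 209.5 CPM, all above the TGFBRII KO means. The CIS KO means of Ifi208 and Itga1 (173 CPM) were also below the WT means, at 58.1 and 202 CPM. Ski was at 97.0 ± 10.6 CPM, Limd1 at 141 ± 5.28 CPM and Zfp318 at 78.2 ± 7.71 CPM in CIS KO (SD, n = 4 each), all below the WT means. Zfp318 was also above its TGFBRII KO mean of 58.8 CPM. The log2 differences of TGFBRII KO from CIS KO were -0.04 ± 0.14 for Ski, 0.01 ± 0.10 for Limd1 and -0.43 ± 0.21 for Zfp318 (SE, edgeR adjusted p = 0.890, 0.967 and 0.219). Limd1 differed between CIS KO and WT by -0.56 ± 0.09 (SE, edgeR adjusted p = 0.00073). Ski also differed, by -0.56 ± 0.125, and Zfp318 by -0.67 ± 0.17 (SE, edgeR adjusted p = 0.0115 and 0.0203). Ifitm3 was higher in CIS KO than in WT, by 0.48 ± 0.15 (SE, edgeR adjusted p = 0.0490). The rest of the 12 genes did not pass between CIS KO and WT. Cish, the gene targeted in CIS KO, lies on chromosome 9 from 107296659 to 107302784, also within 20 Mb of Limd1. The part of either location in the Limd1 values was not tested.

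To ask whether genes that respond to TGFB1 already differed, lists were made from CIS KO libraries alone, which the unstimulated comparison does not use. A gene was listed when it passed the test at both 4 h and 24 h with a change of at least 1 on the log2 scale in the same direction. This gave 185 TGFB1-induced genes (1.9% of those tested) and 56 TGFB1-repressed genes (0.574%). The filter on low counts ran over all 31 libraries, so an induced gene can pass it on treated libraries and be near 0 without TGFB1. Of 7 tested autosomal genes with 0 counts in every unstimulated TGFBRII KO library, 6 were on the induced list. The shares below were not restricted to members expressed without TGFB1. Without TGFB1, 138 of the 185 induced genes (74.6%) had a negative difference in TGFBRII KO, against 52.7% of all autosomal genes. At an unadjusted p under 0.05, 42 were lower (22.7%) and 3 higher (1.62%), against 4.76% and 4.31% of all autosomal genes. In 37 the libraries did not overlap and TGFBRII KO was lower (20%), against 5.37% of all. The 3 that passed the adjusted test were Itga1, Ski and Zfp318, and none passed it in the other direction.

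The median log2 difference of the induced list was -0.29, against -0.01 over all autosomal genes. It was -0.22 when the 6 members with 0 counts in every unstimulated TGFBRII KO library were set to the bound that 3 counts over the group allow. Without WT replicate 3, which stood apart and had the highest list level, the median was -0.17 and 31 members were lower at an unadjusted p under 0.05. Next after the called members came Cited4, a partner of the co-activators CBP and p300. It was at 10.1, 8.44 and 9.72 CPM in TGFBRII KO and 17.8, 17.5, 39.4 and 23.5 CPM in WT, giving a log2 difference of -1.44 ± 0.34 (SE, edgeR adjusted p = 0.0677).

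The level of the induced list per library shows the scale of this difference. In log2(CPM + 1), the mean was 3.66, 3.71 and 3.63 in TGFBRII KO and 3.91, 3.89, 4.10 and 3.92 in WT, with no overlap. The step from unstimulated WT to WT at 24 h, to 5.70 to 5.79, was larger. CIS KO libraries without TGFB1 lay at 3.37, 3.52, 3.55 and 3.69, overlapping TGFBRII KO or below it, although these cells respond to TGFB1. Their low level is partly fixed by the rule, which chose genes that were lower in those very libraries than after TGFB1. CIS KO libraries were also shallower, at 392266 to 711659 counts.

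Of the 56 repressed genes 12 were higher in TGFBRII KO at an unadjusted p under 0.05 (21.4%) and 3 lower (5.36%), against 4.31% and 4.76% of all autosomal genes. In 32 the difference was positive, and the median was 0.09 on the log2 scale. Only Rasl11a passed the adjusted test, and the next members by p were Dll1, Khdc1b and Syna. The mean list level in log2(CPM + 1) was 5.32, 5.29 and 5.38 in TGFBRII KO and 5.18, 5.25, 5.21 and 5.20 in WT, so the groups did not overlap but lay close. With the Y-linked level as a covariate, 8 of the 56 were higher and the median was 0.02.

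**Figure D3:**
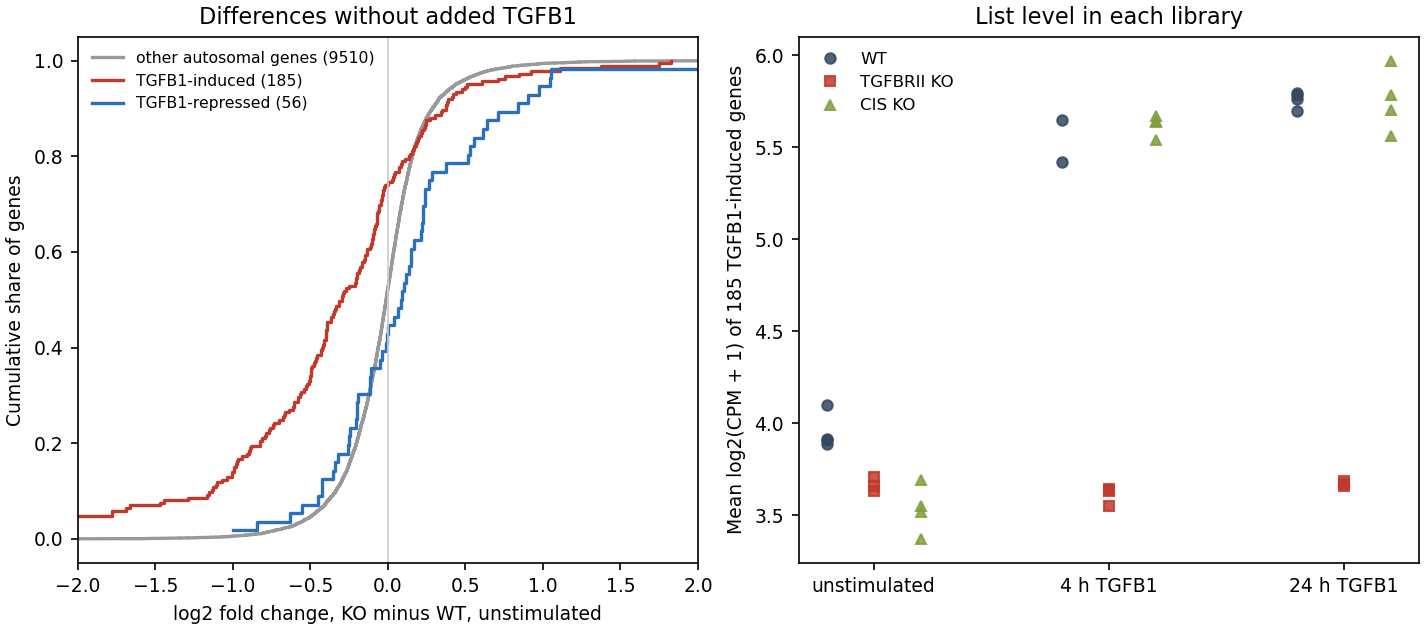
Left, cumulative share of genes by log2 difference between unstimulated TGFBRII KO and WT, for 185 genes induced and 56 repressed by TGFB1 in CIS KO cells and for all other autosomal genes (axis limited to 2 log2 units either side). Right, mean log2(CPM + 1) of the 185 induced genes in each library by genotype and time; unstimulated WT libraries lie at 3.89 to 4.10 and TGFBRII KO libraries at 3.55 to 3.71 at all times.

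The pathway itself was read from lists of its parts. Of 12 measured TGF-beta ligands, activators and receptors none passed the test. The lowest p among them belonged to Acvr2a, an activin receptor, which was at 22.8, 31.3 and 29.2 CPM in TGFBRII KO and 45.8, 51.2, 59.5 and 33.2 CPM in WT (log2 difference -0.80 ± 0.21 SE, edgeR adjusted p = 0.125). None of 11 SMADs and SMAD partners passed at the adjusted or the unadjusted threshold. Their differences ran from -0.20 for Smad2 to 0.07, around a median of -0.11. Of 13 feedback inhibitors and early targets, Ski fell and no other passed.

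Within that feedback list the members did not point one way. Skil, the close relative of Ski, was at 83.6, 108 and 79.0 CPM in TGFBRII KO and 137, 125, 108 and 108 CPM in WT (log2 difference -0.40 ± 0.14 SE, edgeR adjusted p = 0.325). Klf10, a zinc-finger factor known as a TGF-beta early gene, was at 92.4, 98.8 and 77.8 CPM against 69.9, 52.4, 62.0 and 78.7 CPM (0.46 ± 0.16 SE, adjusted p = 0.335). Bhlhe40, a basic helix-loop-helix repressor, had a difference of 0.51 ± 0.17 (SE, edgeR adjusted p = 0.306). Pmepa1, a membrane protein that dampens TGF-beta receptor signalling, had a difference of -0.97 ± 0.43 (SE, edgeR adjusted p = 0.488), and its groups did not overlap. In total 3 members were lower (23.1%) and 2 higher (15.4%) at an unadjusted p under 0.05, against 4.76% and 4.31% of all autosomal genes.

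The residency list held 16 measured genes, of which Itga1 fell and no other passed. Ahr, the aryl hydrocarbon receptor, was at 21.5, 22.9 and 18.2 CPM in TGFBRII KO and 30.5, 28.7, 53.6 and 24.9 CPM in WT (log2 difference -0.79 ± 0.30 SE, edgeR adjusted p = 0.387). Rgs2, a brake on G-protein signalling, was at 49.4, 39.8 and 48.6 CPM against 61.0, 61.2, 66.2 and 60.8 CPM (-0.45 ± 0.17 SE, adjusted p = 0.368). Both were without overlap and below the threshold only before adjustment. Tnfsf10, on the same list, went the other way without overlap (0.27 ± 0.12 SE, edgeR adjusted p = 0.486). At an unadjusted p under 0.05, 3 members were lower (18.8%) and 1 higher (6.25%), against 4.76% and 4.31% of all autosomal genes. The groups did not overlap in 3 lower (18.8%) and 2 higher members (12.5%), against 5.37% and 4.76% of all. The list median was -0.07. All 10 measured genes of a list named for circulating mature NK cells had positive differences, against 47.3% of all autosomal genes. They ran from 0.10 to 0.42 with a median of 0.25. At the unadjusted threshold 2 of them, Cd27 and Itgam, were higher (20%, against 4.31%), and none passed the adjusted test. Cd27 had the lowest p (0.32 ± 0.15 SE, edgeR adjusted p = 0.529). The list was not split by stage of maturation, so its values do not speak for the mature stage alone. Itgam, the CD11b chain of mature NK cells, was at 166, 148 and 157 CPM against 142, 106, 123 and 134 CPM (0.32 ± 0.15 SE, adjusted p = 0.529).

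No effector list held a called gene. Of 14 cytokines and chemokines 4 were higher at an unadjusted p under 0.05 (28.6%, against 4.31% of all autosomal genes) and none lower, around a median of 0.32. Ccl3, an inflammatory chemokine released by activated NK cells, was at 215, 202 and 207 CPM in TGFBRII KO and 170.3, 131, 128 and 138 CPM in WT (log2 difference 0.56 ± 0.14 SE, edgeR adjusted p = 0.0902). Ifng, the interferon gamma gene, had a difference of 0.30 ± 0.13 (SE, adjusted p = 0.487), and its groups overlapped. Ccl4 overlapped by position with Ccl3 in the RefSeq annotation, and had a difference of 0.45 ± 0.20 (SE, adjusted p = 0.502). The 21 genes of the cytotoxic machinery had a median of 0.13 with 3 higher at the unadjusted threshold (14.3%, against 4.31%), and perforin, Prf1, differed by 0.33 ± 0.16 (SE, adjusted p = 0.547).

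Immediate early and AP-1 genes had 17 of 18 positive differences (94.4%, against 47.3% of all autosomal genes), a median of 0.19 and no called gene. At the unadjusted threshold 4 were higher (22.2%, against 4.31%). Dusp6, a phosphatase that switches off ERK, was at 27.9, 37.4 and 28.0 CPM in TGFBRII KO and 17.8, 6.24, 19.3 and 13.8 CPM in WT (log2 difference 1.07 ± 0.29 SE, edgeR adjusted p = 0.134). Zfp36, an RNA-binding protein that destabilises cytokine messages, differed by 0.71 ± 0.23 (SE, adjusted p = 0.306). Of 26 NK receptors and adaptors 4 were higher at the unadjusted threshold (15.4%, against 4.31% of all autosomal genes), led by the checkpoint receptor Lag3, at 12.7, 13.3 and 14.6 CPM against 2.54, 2.50, 5.87 and 6.91 CPM (1.54 ± 0.44 SE, adjusted p = 0.179). Of 26 NK and ILC transcription factors 4 were higher (15.4%), led by Maf at 0.42 ± 0.14 (SE, adjusted p = 0.306). Among 15 TNF superfamily genes 3 were higher (20%), led by the 4-1BB ligand gene Tnfsf9, whose counts were low (2.08 ± 0.59 SE, adjusted p = 0.171).

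Bcl11b led the 16 T-lineage signalling genes, of which 3 were higher at the unadjusted threshold (18.8%, against 4.31% of all autosomal genes) and none called. It encodes a transcription factor of T cells and mature NK cells, and was at 186, 171 and 189 CPM in TGFBRII KO and 121, 116, 112 and 128 CPM in WT (log2 difference 0.62 ± 0.16 SE, edgeR adjusted p = 0.127). The summed T cell markers given above moved in the same direction, and their part in this value was not tested. Cd3g differed by 0.33 ± 0.13 and Cd3d by -0.30 ± 0.16 (SE, adjusted p = 0.401 and 0.565).

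Ribosome biogenesis had the lowest median among the 25 lists of named pathways and functions, at -0.16 over 19 genes. Of these 16 had negative differences, and 5 were lower at the unadjusted threshold (26.3%, against 4.76% of all autosomal genes) with none called. Nolc1, a nucleolar chaperone, was at 168, 127 and 151 CPM in TGFBRII KO and 222, 250.9, 175 and 211 CPM in WT (log2 difference -0.53 ± 0.14 SE, edgeR adjusted p = 0.125). Nop58, a core protein of the box C/D particles that modify ribosomal RNA, differed by -0.28 ± 0.09 (SE, adjusted p = 0.306). In the cell cycle list of 37 genes the proliferation marker Mki67 had the lowest p, at 110.2, 113 and 138 CPM against 128, 235, 269 and 177 CPM, and its groups overlapped (-0.77 ± 0.21 SE, adjusted p = 0.162). The list median was -0.04.

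Metabolic lists stayed near the median of all genes. None of 14 glycolysis, 14 hypoxia response, 24 oxidative phosphorylation and 20 cholesterol synthesis genes passed even the unadjusted threshold, and the medians ran from 0.03 to 0.07 on the log2 scale. Of 19 genes of amino acid supply 1 was lower at that threshold, Cars, a transfer RNA synthetase gene (-0.54 ± 0.16 SE, edgeR adjusted p = 0.207). The 10 Ly49 receptor genes, which share reads, had a median of 0.12 with none past either threshold. Among 15 genes of interleukin 15 and STAT5 signalling none was called, and Cish itself differed by -0.29 ± 0.12 (SE, adjusted p = 0.460). The remaining lists held no called gene either. Their medians were 0.05 for 14 genes of the interleukin 12, 18 and interferon gamma axis, 0.07 for 21 p53 target and apoptosis genes and 0.09 for 14 homing and egress receptors.

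**Figure D4:**
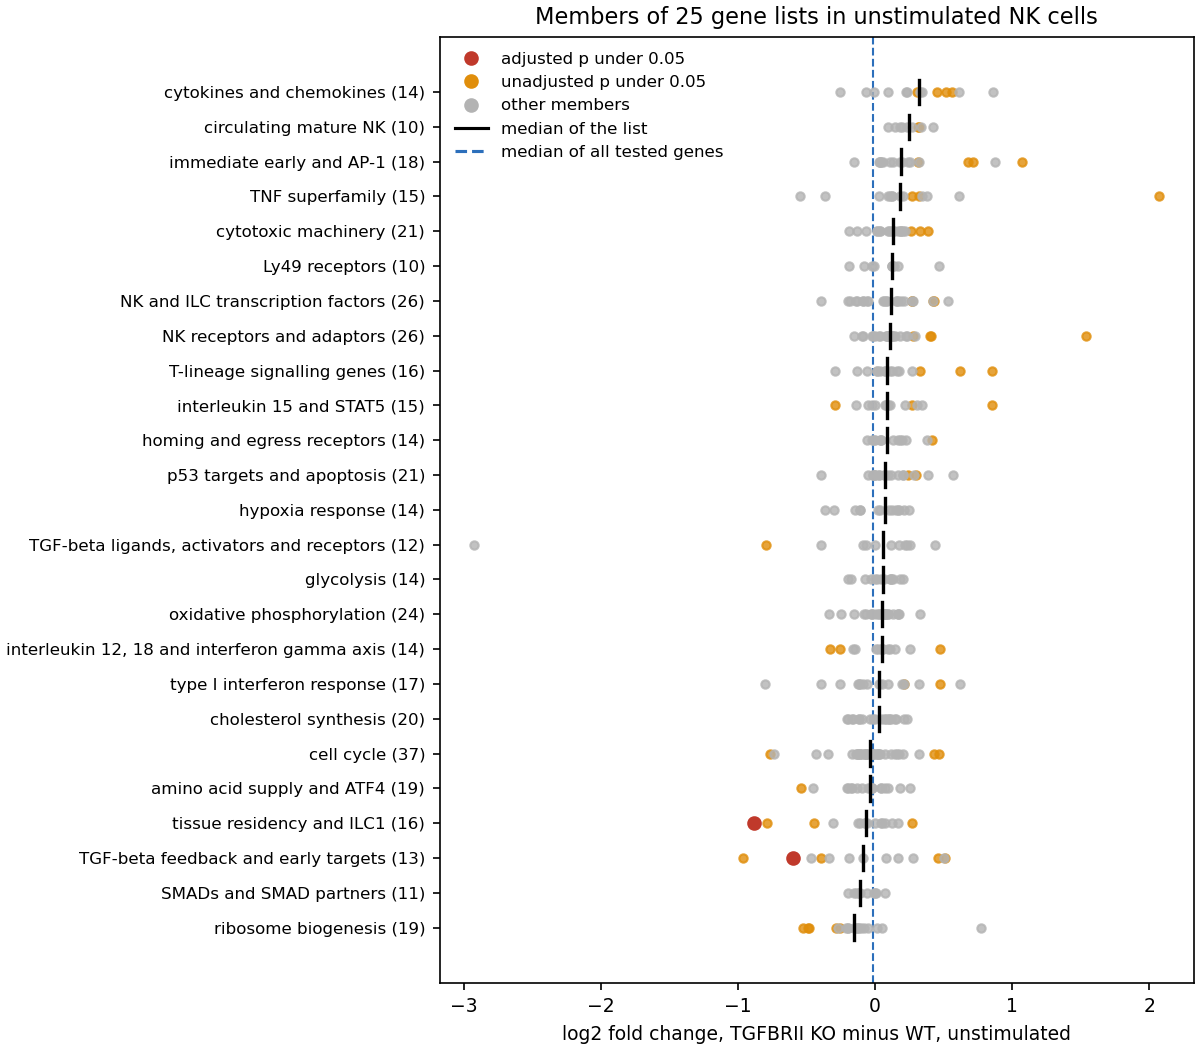
Log2 difference between unstimulated TGFBRII KO and WT for every measured member of 25 gene lists, 1 point a gene, with red for an adjusted and orange for an unadjusted p under 0.05, black ticks for list medians and a dashed line for the median of all tested genes. List medians run from -0.16 to 0.32 and the red points are Itga1 and Ski; the leftmost point, Tgfbr3, had 0 counts in all 3 TGFBRII KO libraries and at most 2 in a WT library, so its fitted value is not read.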

How the data were processed

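RNA was sequenced from sorted mouse NK cells with a strand-keeping kit, per the labels' protocols. The authors deposited a table of raw read counts per Entrez gene. Per the submitters' processing notes the tools were FastQC, Trimmomatic, Subread, Picard, SAMtools and featureCounts on mm10, and the sources used here do not give the strand and duplicate settings. Identifiers were named from RefSeq GRCm38.p6 (25269 matched, and 1910 unmatched hold 0.958% of counts). All 31 libraries in 9 groups entered 1 edgeR 4.0.16 fit in R 4.3.3 (filterByExpr with 10 counts, TMM, quasi-likelihood test), with Benjamini-Hochberg adjustment over 10275 genes, and autosomal rows are reported. P-values measure the spread between libraries labelled biological replicates. The fit takes all libraries as independent, although same-numbered libraries of a genotype may share animals or pools across times. The SE of a genotype difference was its absolute log2 value divided by the square root of the F statistic of the quasi-likelihood test, so it is approximate. CPM values are scaled by TMM. Named genes were the largest called changes per direction without overlap between groups and with a mean of at least 5 CPM, filled by lowest p to 10 per direction, plus the lowest p of each list. The comparison, members and lists were chosen with earlier results of these data known. The fit was tested on simulated data, where 3.6% of calls were false. These counts were independent draws with the spread that the fit itself estimated. No Y-linked difference or outlying library was built in, so the share of false calls in the real comparison can differ. Same-numbered libraries of the genotypes did not deviate together (correlations -0.05 to 0.08). With 3 against 4 libraries an exact permutation test cannot go below p = 0.0571. Alternatives were DESeq2 and other scalings, filters, covariates and library sets. Marker sums for some other cell types are not reported here.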

Additional observations from a re-analysis of the deposited data

Results flagged for a closer look

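In 7 of 26 tests the genotype difference changed between unstimulated cells and cells given TGFB1 (edgeR interaction, adjusted over all genes). On the log2 scale, TGFBRII KO minus WT, it changed at 4 h by -1.29 for Zfp318, -1.36 for Itga1 and -2.31 for Ski, and at 24 h by -1.04 for Zfp318, -0.80 for Itga1, -1.94 for Ski and 2.21 for Mmp9. Over all genes 778 passed this test at 4 h and 1105 at 24 h.

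Of 125 sets of 4 libraries, 6 held 1 library far from the other 3, and chance gives about 1 in 20. WT replicate 1 stood apart for Dll1 (36.9 CPM, next 23.5), Marcks (113 CPM, next 141) and Tnfaip3 (81.3 CPM, next 40.1), an inhibitor of NF-kappaB signalling. WT replicate 3 stood apart for Rgs2 (66.2 CPM, next 61.2) and Cars (88.9 CPM, next 78.8). CIS KO replicate 2 at 24 h stood apart for Ski (394 CPM, next 459.6 CPM).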

How the results depend on the processing

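The 12 calls of the unstimulated comparison became 163 with no filter on low counts, 59 with depth as a covariate, 7 with DESeq2 and 7 with TGFBRII KO replicates 1 and 3 summed as 1 sample, an alternative chosen after seeing the data. Leaving out 1 library gave 5 to 76 calls, 5 without TGFBRII KO replicate 1 and 76 without WT replicate 1. RLE size factors gave 9 higher and 8 lower, against 4 and 8. All 12 genes kept their sign in all 16 alternatives, and Mmp9, Ifi208, Itga1 and Zfp318 kept their call in all 16. Sik1 and Ifitm3 were called in 12. Of the 12 genes 5, 7 and 8 were still called without TGFBRII KO replicates 1, 2 and 3, and 12, 8, 7 and 9 without WT replicates 1, 2, 3 and 4. At 4 h the 1182 calls became 694 with the Y-linked covariate, 718 with only the libraries of the groups compared and 785 to 1095 leaving out 1 library (785 without WT replicate 1). The 428 calls against CIS KO became 706 with no filter, 270 with depth as a covariate, 1271 with only the libraries compared, 202 with DESeq2, 207 with the summed libraries and 98 to 522 leaving out 1 library (113, 281 and 98 without TGFBRII KO replicates 1, 2 and 3, and 195, 228 and 182 without CIS KO replicates 1, 2 and 3). The count of TGFB1-induced genes that were lower ranged from 31 to 46. Of 1228 alternative values of named genes 1 changed sign, that of Crebbp, to 0.057 with the Y-linked covariate. With a replicate block the 4 counts were 9, 912, 2083 and 338. Same-numbered unstimulated libraries of TGFBRII KO and WT did not deviate together. Within TGFBRII KO, across times, same-numbered libraries correlated at 0.02 to 0.19 in their deviations and others at -0.20 to 0.08, and within WT at -0.38 to 0.09 and -0.23 to 0.32. With that number as a block within genotype, a fit chosen after seeing the data, the changes of the genotype difference at 4 h turned from 0.001 to -0.109 for Ifitm3 and from -0.014 to 0.06 for Limd1, none of them past the test. Except where a smaller set of libraries or genes accounts for it by construction, the cause was not tested. At these totals, low genes are read with little precision.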
